A study of Mus musculus with 2 samples.

Results

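The 82 genes described here encode the histones, the proteins around which DNA is wrapped into nucleosomes. They were taken as all protein-coding genes of GENCODE M21 whose names begin with Hist1h to Hist4h, H1f, H2af or H3f, and make up 82 of 55536 annotated genes and of 22028 protein-coding genes. Of the 82, 67 lie in the Hist clusters and are called Hist cluster genes below, and 15 are replacement genes named H1f, H2af or H3f. The rule used names only and no measured value. The libraries were long-read RNA sequencing of whole heart tissue from untreated B6CASTF1/J females aged 2 months, the F1 cross of a C57BL strain with a CAST strain. There was 1 group with 2 replicates, each made from 2 µg of total RNA, so no condition could be compared. The sample text numbers the animals 3 and 4, the library text names animal 3 for both, and both carry 1 donor identifier, so the spread between replicates may be technical.

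Replication-dependent histone genes are known to be switched on during DNA synthesis, to lack introns in most cases, and to yield messages that end just past a stem-loop in place of a poly(A) tail. The stem-loop-binding protein holds that structure during 3′ end processing. Replacement histones are known to be made throughout the cell cycle, mostly from spliced and polyadenylated messages, and to take the place of the replication-dependent forms in chromatin of cells that no longer divide, as most adult heart muscle cells do.

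Reads on annotated genes numbered 859191 in replicate 1 and 707758 in replicate 2, and CPM below means counts per 1000000 such reads, so that 1 read was worth 1.16 and 1.41 CPM. A gene with 0 reads could lie at up to 3.49 and 4.24 CPM, the level of 3 reads. All 8 cardiomyocyte markers had reads and summed to 50117 and 52726 CPM, beside 591 and 558 for endothelial cells, 1398 and 1358 for fibroblasts, 95.4 and 112 for macrophages and 27316 and 25362 for red cells. All 6 male germ cell markers were at 0. In whole tissue, fewer cells of a type and less RNA per cell cannot be told apart.

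The sequence element that marks a replication-dependent message was searched in the annotated transcripts first. A perfect histone stem-loop of 16 bases, with a stem of 6 base pairs and a loop of 4 bases, was found in the leading transcript of 45 of the 67 Hist cluster genes. It began 22 to 59 bases after the stop codon (median 32). Another 14 of the 67 transcripts are annotated only as far as the stop codon and so hold no such stretch. Of 58797 annotated protein-coding transcripts, 217 (0.369%) held a match. That search took every isoform over its full length, histone transcripts included, whereas members were searched after the stop codon of the leading transcript. The 5 Hist cluster genes that had both a match and at least 10 reads are shown with H2afx, the only replacement gene with a match, because these 6 let the 2 classes be compared. Capitals mark the stem-loop and lower case the 5 bases on each side.
Hist1h1c: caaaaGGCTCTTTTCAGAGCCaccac
Hist1h4h: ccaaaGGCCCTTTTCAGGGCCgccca
Hist2h2aa1: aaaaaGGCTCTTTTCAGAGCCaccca
Hist2h2aa2: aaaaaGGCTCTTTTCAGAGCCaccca
Hist3h2a: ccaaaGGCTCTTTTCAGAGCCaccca
H2afx: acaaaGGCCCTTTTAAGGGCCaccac

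The sequences were read from the GENCODE M21 transcripts (mm10), 5′ to 3′ on the strand of the gene, and lie in 3′ untranslated regions. Their places are chr13:23739507-23739532 on the plus strand for Hist1h1c and chr13:23531453-23531478 on the plus strand for Hist1h4h. Hist2h2aa1 is at chr3:96246027-96246052 on the plus strand and Hist2h2aa2 at chr3:96239779-96239804 on the minus strand. Hist3h2a is at chr11:58955167-58955192 and H2afx at chr9:44335235-44335260, both on the plus strand. The form in Hist1h1c, Hist2h2aa1, Hist2h2aa2 and Hist3h2a was shared by 25 members, and the form in Hist1h4h by 7 members, all of them H4 genes.

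A poly(A) signal (AATAAA or ATTAAA, on the strand of the transcript) was searched in the last 50 bases of every leading transcript, with or without a stem-loop. It was present in 16 of 67 Hist cluster transcripts, 13 of which also held the stem-loop, and in 10 of 15 replacement transcripts. Over all protein-coding transcripts, with every isoform counted, it was present in 50.2%. The 3 Hist cluster genes with both elements and at least 10 reads are shown beside the 2 genes for the replacement histone H3, with the signal in capitals.
Hist1h1c: gcttctAATAAAaagcgtttagttttcatt
Hist1h4h: tttcttATTAAAagagcgaacatgtgtttt
Hist3h2a: atgcccAATAAAataagagtacgtgtataa
H3f3a: aaaaatAATAAAagtaccaatagaagaa
H3f3b: cttacaAATAAActagtaagtttggagttt

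These stretches lie at chr13:23740336-23740365 (plus strand), chr13:23531482-23531511 (plus strand), chr11:58956791-58956820 (plus strand), chr1:180800832-180800859 (minus strand) and chr11:116021981-116022010 (minus strand), in the order shown. The annotated transcript of Hist1h1c runs 840 bases past its stem-loop and that of Hist3h2a 1643 bases, whereas that of Hist1h4h ends 46 bases and those of Hist2h2aa1 and Hist2h2aa2 end 35 bases past it. H2afx, which encodes the H2A form that is phosphorylated at DNA breaks, runs 822 bases past its stem-loop to a poly(A) signal. A match to these letters is a description of the annotation, not a mapped end.

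**Figure D1:**
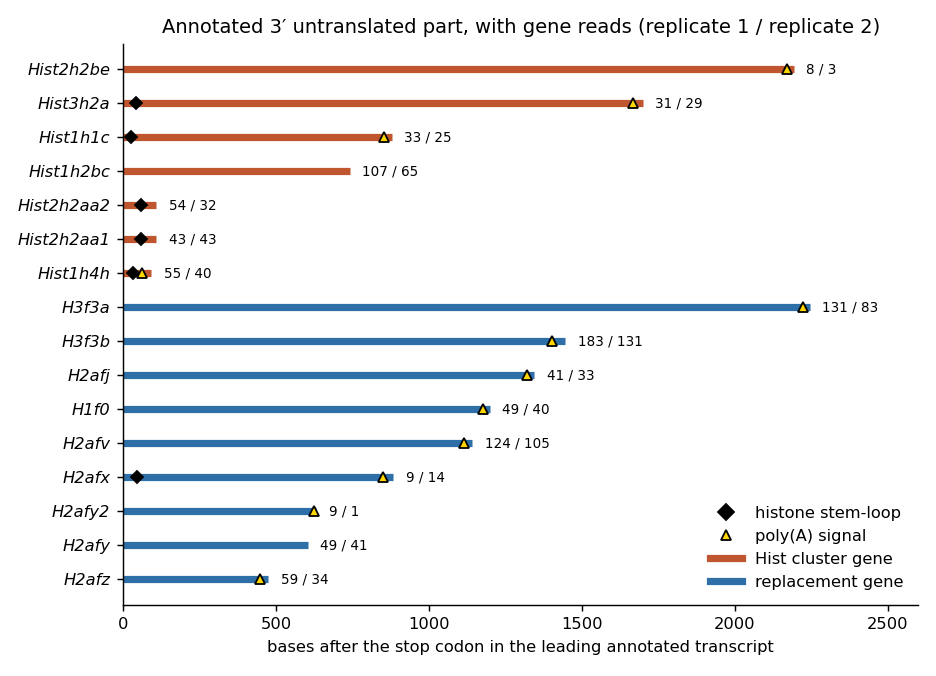
Annotated 3′ untranslated part of the leading transcript of the 16 histone genes with at least 10 reads, drawn to scale in bases after the stop codon, with stem-loops as diamonds, poly(A) signals as triangles and the reads of the gene in replicates 1 and 2 at the right. Stem-loops sit close to the stop codon in 5 Hist cluster genes and in H2afx, and 12 of the 16 bars end near a poly(A) signal.

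Reads of Hist cluster genes were spread over both kinds of annotated end. The 13 genes with stem-loop and poly(A) signal held 122 and 96 reads, on 6 genes. Among these 6, Hist1h2be had reads only on a model without the stop codon, not on its leading transcript. The 32 genes with a stem-loop and no signal held 104 and 77 reads, on 8 genes. Hist1h2bc, whose leading transcript has neither, held 107 and 65 reads, and Hist2h2be, with a signal and no stem-loop match, held 8 and 3. Whether the cDNA was primed from poly(A) tails is not given in the sources used here, so the part of priming in which messages were read was not tested.

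Histone genes together held 997 reads in replicate 1 and 723 in replicate 2, or 1160 and 1022 CPM (1091 ± 98.2, SD, n = 2). Replacement genes held 654 and 482 reads (721 ± 56.7 CPM, SD, n = 2) and Hist cluster genes 343 and 241 (370 ± 41.5 CPM). The share of histone reads on Hist cluster genes was 34.4% in replicate 1, with a Wilson 95% interval of 31.5 to 37.4%, and 33.3% in replicate 2, with one of 29.99 to 36.8%. A read stands for 1 sequenced molecule whatever its length, and Hist transcripts are shorter. On the scale of reads per 1000 bases of each gene's leading transcript the Hist cluster share was 55.5% and 54.6%, so the majority differed between the scales. Division by length raises the shorter transcripts, so the share per 1000 bases is not a share of sequenced molecules. Intervals cover no error other than that of counting, as reads carried no molecular identifiers.

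Within the histone types the Hist cluster share was lowest for H3. For H3, whose replacement form is made from H3f3a and H3f3b, the 12 Hist cluster genes held 4 of 318 reads in replicate 1 (1.26%, 0.490 to 3.19%) and 0 of 214 in replicate 2. That count of 0 allows a share of up to 1.40% by the limit of 3 reads, and up to 1.76% by the Wilson interval. Per 1000 bases the H3 share of Hist cluster genes was 2.64% and 0. For H2A the Hist cluster genes held 30.9% of 421 reads (26.7 to 35.4%) and 31.3% of 332 reads (26.6 to 36.5%), or 50.2% and 50.3% per 1000 bases. For the linker histone H1 they held 40.2% of 82 reads (30.3 to 51.1%) and 38.5% of 65 reads (27.6 to 50.6%), or 47.0% and 45.2% per 1000 bases. In each replicate the interval of H3 lay below those of H2A and H1, whereas those of H2A and H1 overlapped. H2B, with 120 and 69 reads, and H4, with 56 and 43, have only Hist cluster genes among the members.

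**Figure D2:**
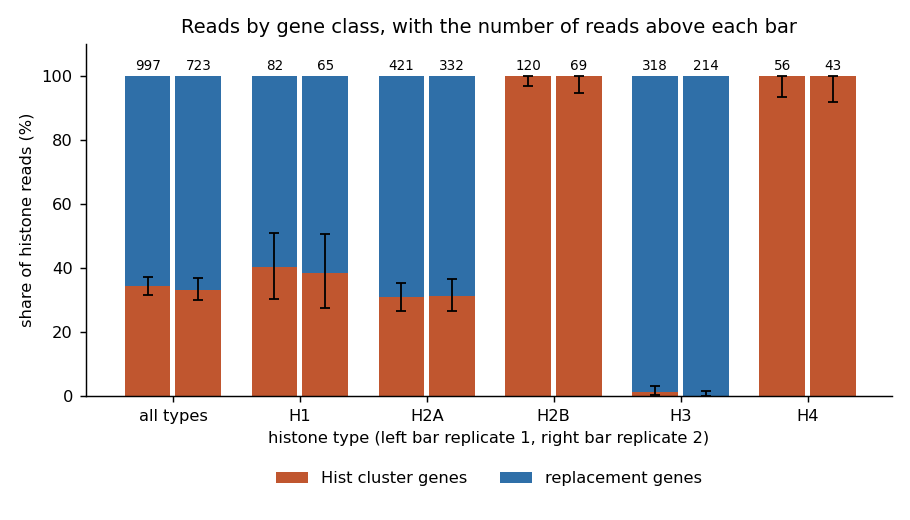
Share of histone reads (%) on Hist cluster genes and replacement genes, over all types and within H1, H2A, H2B, H3 and H4, with replicate 1 as the left bar and replicate 2 as the right bar. Black bars are Wilson 95% intervals of the Hist cluster share and numbers above are reads; H3 reads lie almost all on replacement genes, with a Hist cluster share of 1.26% and 0, while H2A and H1 are mixed.

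Detection was counted by class. Of the 67 Hist cluster genes, 17 had a read in either library, 9 (13.4%) had one in both, 7 reached 10 reads in total and 50 were at 0. Of the 15 replacement genes, 9 (60%) had reads in both libraries, all 9 with at least 10 in total, and 6 were at 0. Over all protein-coding genes 52.2% had a read in both libraries and 39.0% were at 0. By cluster, 11 of 54 Hist1 genes had a read, 4 of 10 Hist2 genes, both Hist3 genes, and not the Hist4 gene. Within the Hist cluster class, 5 of 6 H1, 14 of 18 H2A, 12 of 18 H2B, 10 of 12 H3 and 9 of 13 H4 genes were at 0. A near-identical copy (at least 95% identity over at least 80% of the transcript) was found for 30 of the 82 members. Reads of such genes may have been assigned elsewhere, so their 0 need not mean absence, which was not tested. The same limit applies to the Hist cluster share of H3.

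Reads within each class lay on few genes. Hist1h2bc alone held 31.2% and 27.0% of Hist cluster reads, and the highest 5 genes held 85.1% and 86.7%. Among replacement genes H3f3b held 28.0% and 27.2%, and the highest 5 held 83.5% and 83.0%.

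The replacement H3 genes were among the most read members. H3f3b (ENSMUSG00000016559.14, chr11:116021912-116027962, minus strand) had 183 and 131 reads, or 213 and 185 CPM (199 ± 19.7, SD, n = 2), and was 739th of 22028 protein-coding genes. H3f3a (ENSMUSG00000060743.12, chr1:180800832-180813943, minus strand) had 131 and 83 reads, or 152 and 117 CPM (135 ± 24.9). Both encode the H3 form deposited outside DNA synthesis, and H3f3b was the higher of the pair in both libraries. It took 58.3% of their reads in replicate 1 (52.8 to 63.6%) and 61.2% in replicate 2 (54.5 to 67.5%), and per 1000 bases H3f3b was at 99.9 ± 9.90 CPM and H3f3a at 47.5 ± 8.76. Their coding sequences share 316 of 411 bases (76.9%), and H3f3b shares 81.3% with Hist2h3c2. The antisense gene H3f3aos, which overlaps H3f3a, had 1 and 4 reads.

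Among the H2A replacement genes, H2afv and H2afz encode the variants known as H2A.Z, found at gene starts. H2afv (ENSMUSG00000041126.16, chr11:6427229-6444443, minus strand) had 124 and 105 reads, or 144 and 148 CPM (146 ± 2.85). H2afz (ENSMUSG00000037894.13, chr3:137864487-137866922, plus strand) had 59 and 34 reads, or 68.7 and 48.0 CPM (58.4 ± 14.6). H2afv was the higher in both libraries, with 67.8% of the reads of the pair in replicate 1 (60.7 to 74.1%) and 75.5% in replicate 2 (67.8 to 81.9%). Per 1000 bases H2afv was at 89.6 ± 1.75 CPM and H2afz at 54.6 ± 13.6. Their coding sequences share 306 of 387 bases (79.1%).

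H2afy and H2afy2 encode macroH2A, an H2A that carries a large additional domain. H2afy (ENSMUSG00000015937.15, chr13:56073619-56136361, minus strand) had 49 and 41 reads (57.5 CPM), of which only 20 and 21 lay on annotated models, and counting annotated models alone put it at 34.9 CPM of the reads on such models. H2afy2 (ENSMUSG00000020086.6, chr10:61738665-61784147, minus strand) had 9 and 1 reads (5.94 CPM) and overlaps Aifm2, which had 37 and 30, on the opposite strand. H2afy was the higher of the pair in both libraries, with 84.5% of their reads (73.1 to 91.6%) and 97.6% (87.7 to 99.6%). H2afj (ENSMUSG00000060032.6, chr6:136808244-136810074, plus strand), which encodes H2A.J, had 41 and 33 reads (47.2 CPM). H2afx (ENSMUSG00000049932.3, chr9:44334694-44336077, plus strand) had 9 and 14 reads (15.1 CPM). The 3 H2afb genes, known from testis, were at 0.

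The linker histones were represented by 1 gene of each class. H1f0 (ENSMUSG00000096210.2, chr15:79028450-79030504, plus strand), a linker histone known from differentiated cells, had 49 and 40 reads, or 57.0 and 56.5 CPM. Hist1h1c (ENSMUSG00000036181.2, chr13:23738808-23740367, plus strand) had 33 and 25 reads, or 38.4 and 35.3 CPM, and was the only Hist cluster H1 gene of 6 with a read. The share of Hist1h1c in their reads was 40.2% and 38.5%, and both intervals included equal shares. H1fx, H1foo and H1fnt were at 0, the latter 2 known from oocytes and testis.

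Among core histones of the Hist clusters, the H2B gene Hist1h2bc (ENSMUSG00000018102.5, chr13:23684199-23692908, plus strand) was the highest by reads, with 107 and 65, or 125 and 91.8 CPM (108 ± 23.1). The H4 gene Hist1h4h (ENSMUSG00000060981.7, chr13:23531050-23531519, plus strand) had 55 and 40 reads (60.3 CPM). Its transcript has 470 bases, and per 1000 bases it was at 128 ± 11.3 CPM, the highest of the 16 genes as the reads were split in the deposited counts. The H2A gene Hist3h2a (ENSMUSG00000078851.4, chr11:58954685-58956830, plus strand) had 31 and 29 reads (38.5 CPM). The H2B gene Hist2h2be (ENSMUSG00000068854.7, chr3:96221119-96223738, plus strand) had 8 and 3 reads (6.77 CPM).

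Hist2h2aa1 (ENSMUSG00000064220.6, chr3:96245497-96246082, plus strand) and Hist2h2aa2 (ENSMUSG00000063954.7, chr3:96239749-96240276, minus strand) are an inverted pair of H2A genes. They had 43 and 43 reads and 54 and 32 reads. Their coding sequences are identical over 393 bases, so the split between them is uncertain, whereas their sum of 97 and 75 reads does not depend on it. In all, 30 members have a near-identical copy (at least 95% identity over at least 80% of the transcript), and these were the only 2 of them with at least 10 reads. That share is of the member's own transcript, so longer transcripts can miss it. Hist1h2bc matches all of the Hist1h2br transcript at 99.5% identity, and Hist1h4h all of the Hist1h4k transcript at 95.5%. Whether reads of such genes were assigned to Hist1h2bc or Hist1h4h was not tested. Hist2h2aa1 also overlaps Gm20634 on its own strand, which had 4 and 5 reads. Gm20634 matches all of the Hist2h2aa2 transcript and 90.3% of that of Hist2h2aa1 at 100% identity. The sum of the pair may thus depend on which reads were assigned to Gm20634. Of the Hist cluster genes below 10 reads, Hist2h3c2, an H3 gene, had 3 and 0 reads, and Hist1h2be and Hist1h4i had 1 in each library. The reads of Hist1h2be lay on Hist1h2be-203, which does not hold the stop codon and overlaps Hist1h1e on the same strand.

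**Figure D3:**
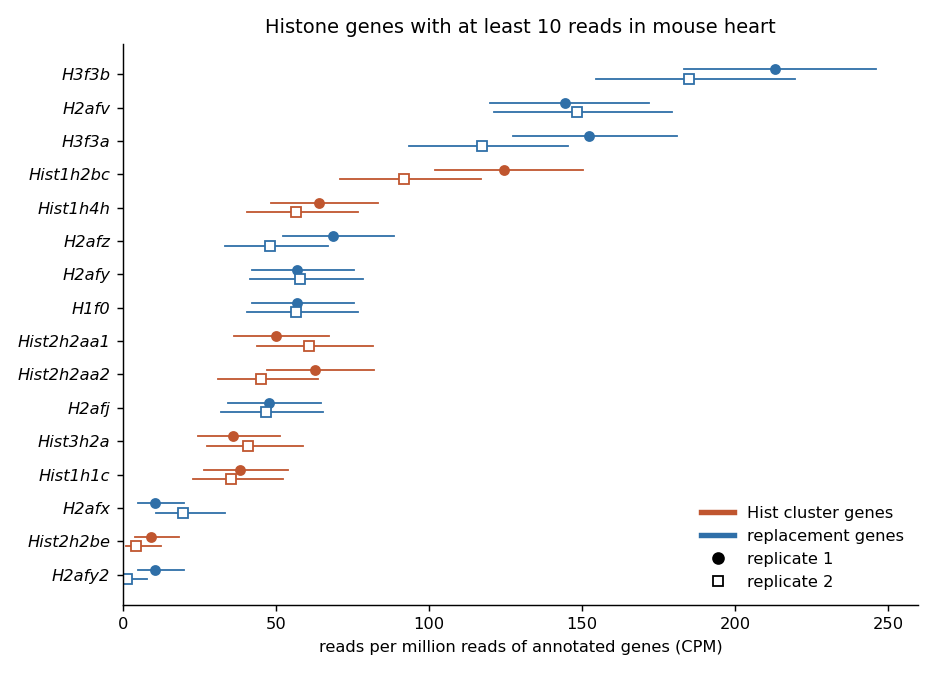
Level of the 16 histone genes with at least 10 reads in CPM, one row per gene and one marker per library (filled circle for replicate 1, open square for replicate 2), with exact Poisson 95% intervals as lines. H3f3b, H2afv and H3f3a, all replacement genes, lie highest, and the intervals of the 2 libraries overlap for all 16 genes.

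Ordered by reads the 3 highest members were replacement genes, and ordered per 1000 bases the 2 highest were the Hist cluster genes Hist1h4h and Hist2h2aa2 (102 ± 23.6 CPM). Both places in the second order hold only under the deposited split of reads between Hist2h2aa1 and Hist2h2aa2. On that scale Hist1h2bc was at 93.6 ± 20.0 CPM, and its values of 108 and 79.4 spanned those of H2afv, 88.4 and 90.8. H3f3b, at 107 and 92.9, was above H2afv in both libraries. Hist3h2a and Hist1h1c, with longer transcripts, were at 17.95 ± 1.61 and 23.6 ± 1.40 CPM on that scale.

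The models that the reads were assigned to differed in structure between the classes. Models with a single exon held 78.4% (73.8 to 82.5%) and 80.1% (74.6 to 84.6%) of Hist cluster reads, 18.7% (15.9 to 21.8%) and 22.0% (18.5 to 25.9%) of replacement reads, and 10.8% and 9.79% of reads over all annotated genes. Annotated single-exon models alone held 67.9% and 73.0% of Hist cluster reads and 15.1% and 18.05% of replacement reads. The replacement genes with an intronless annotated transcript and reads were H1f0, H2afj and H2afx. Annotated models held 88.3% and 92.9% of Hist cluster reads and 90.1% and 89.4% of replacement reads, above the 76.0% and 75.7% over all genes. The median model length over reads was 586 bases for Hist cluster genes and 1993 bases for replacement genes in both libraries.

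Hist1h2bc was the only Hist cluster gene of the 7 with at least 10 reads whose reads lay mostly on spliced models. The annotated transcript has 2 exons and 1156 bases, and after the stop codon it goes on through the intron to an exon at chr13:23692176-23692908, with 742 bases after the stop codon in all and no stem-loop match. This spliced model held 70 of 107 reads in replicate 1 and 48 of 65 in replicate 2. A single-exon model of 305 bases inside the distal, non-coding exon (chr13:23692176-23692480) held 36 and 17 reads. The authors classed it as an incomplete splice match in the first library and as genomic in the other. Without models that lack the stop codon, the Hist cluster share of histone reads had a mean of 32.5%, beside 33.9% over all models.

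Deposited model ends lay far past the stem-loop for several members. The 3′ end of the model, as a distance along the genome from the stop codon, had a read-weighted median of 880 bases for Hist cluster genes in both libraries, with quartiles of 109 and 7868 bases. For replacement genes it was 1345 and 1198 bases. The 880 bases are the end of Hist1h1c and the 109 bases that of Hist2h2aa1 and Hist2h2aa2. The 7868 bases are the end of unannotated Hist1h2bc models, mainly the one of 305 bases, and include the intron. In the annotated Hist1h2bc transcript 742 bases follow the stop codon. Annotated models carry the ends of the annotation and not those of the reads, so these distances describe the assignment. Some unannotated models ended elsewhere and others at the annotated end. For H3f3a, whose annotated transcript ends 2245 bases after the stop codon, the unannotated models that hold the stop codon had 4 reads in replicate 1 and 2 in replicate 2 on models ending 380 bases after it. Those ending at the annotated 2245 bases had 0 and 9 reads.

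H2afy and H2afv were the members that met both conditions for comparing isoform use, 20 annotated reads per library and less than 95% of them on the leading model. H2afy-201 and H2afy-202 differ by an exchange of 2 exons, one of 100 bases at chr13:56089758-56089857 in H2afy-201 and one of 91 bases at chr13:56088252-56088342 in H2afy-202. Such an exchange is known to separate 2 forms of macroH2A1 that differ in the additional domain. Of reads on models with either exon, 35 of 41 in replicate 1 (85.4%, 71.6 to 93.1%) and 32 of 33 in replicate 2 (97.0%, 84.7 to 99.5%) held the 91-base exon. Another 8 reads in each library were on models with neither. Besides H2afy-202 itself, with 13 and 15 reads, an unannotated combination of known splice sites with 9 exons held 20 reads in replicate 1. In replicate 2 a model of the same class, with 9 exons and the same 3′ end, held 16. The 2 models had 1930 and 1840 bases, with 5′ ends at chr13:56135530 and chr13:56135440. Whether they are the same splice combination was not tested.

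H2afv-202 held 95 of 117 annotated H2afv reads in replicate 1 (81.2%) and 90 of 99 in replicate 2 (90.9%), the rest being H2afv-201, which ends nearer to the stop codon. The difference did not pass the threshold in Fisher's exact test (p = 0.0516, Benjamini-Hochberg adjusted p = 1 over 1037 genes). The leading H2afy model took 65.0% and 71.4% (adjusted p = 1 in Fisher's exact test). Over all genes tested 0.0964% were called, and of these 2 members 0, with 0 at an unadjusted p below 0.05.

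Between the libraries no histone gene was called. Each gene that reached 10 reads was put to an exact binomial test (two-sided, conditional on its total, given the 2 library totals), which compares these 2 libraries and not conditions. Of 9334 genes, 30 (0.321%) had an adjusted p below 0.05 with at least a 2-fold difference. Of the 16 histone genes 0 were called, and edgeR's exact test with preset variation also called 0. In the exact binomial test 1 histone gene had an unadjusted p below 0.05, beside 796 of all 9334 genes tested. That histone gene was H2afy2, with a fold of 0.135 (0.00308 to 0.973) of replicate 2 over replicate 1 (exact binomial p = 0.0273, adjusted p = 0.475).

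Log2 ratios of replicate 2 over replicate 1 were below 0 for 11 histone genes and above 0 for 5. Over all genes tested they were below 0 for 4187 and above 0 for 5147. The median was -0.14 for histone genes, beside 0.05 over all genes tested. The largest magnitudes were those of the genes with the fewest reads, H2afy2 (-2.38), Hist2h2be (a fold of 0.455) and H2afx (0.89). For well read members such as H3f3b (-0.20) and Hist1h2bc (-0.44) the exact 95% intervals of the fold, 0.689 to 1.09 and 0.533 to 1.01, included equal levels.

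**Figure D4:**
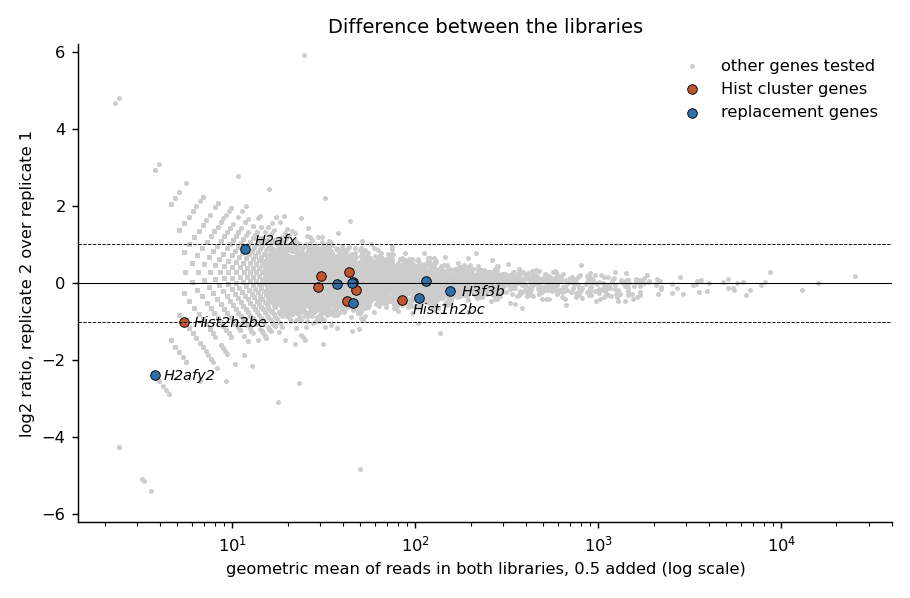
Log2 ratio of replicate 2 over replicate 1 against the geometric mean of reads in both libraries (0.5 added to each, log axis) for 9334 genes, with histone genes in colour and dashed lines at a 2-fold difference. Most of the 16 histone genes lie between the dashed lines, H2afy2 lies well below the lower line and Hist2h2be on it.

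Genes that process histone messages were taken as a list of 13. Of these, 12 had a read and Zfp473, a component of the processing complex, was at 0. The highest were Srrt at 52.9 CPM, which joins the cap-binding complex to 3′ end processing, Cpsf3 at 48.8, the nuclease that cuts pre-mRNA, and Ncbp1 at 25.6, a cap-binding subunit. Slbp, the stem-loop-binding protein, had 9 and 10 reads, and was named for its role after its values were seen. The median was 14.0 CPM, beside 1.99 over all protein-coding genes. Of 9 members tested between the libraries 0 were called and 1 had an unadjusted p below 0.05 in the exact binomial test. Over all 9334 genes tested 30 were called and 796 had such a p. The median log2 ratio of the 9 was 0.42.

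Histone chaperones, which escort histones to DNA, had 21 of 22 genes with a read and a median of 15.6 CPM. The highest were Hmgb1 at 172 CPM, a DNA-bending protein, Nap1l4 at 122, a nucleosome assembly protein, and Npm1 at 75.1. Of the chaperones of the replacement H3, Hira had 4 and 4 reads (5.15 CPM), below the list median. Daxx had 12 and 15 (17.6 CPM) and Atrx 12 and 12 (15.5 CPM), both near that median. Anp32e, which removes H2A.Z, had 58 and 52. Of the subunits of the assembly factor that acts during DNA synthesis, Chaf1a had 1 and 0 reads and Chaf1b 0 in both. These 6 genes were named after their values were seen. Of 15 tested, 0 were called and 0 had an unadjusted p below 0.05 in the exact binomial test, beside 30 and 796 of all 9334 genes. The median log2 ratio of the chaperones tested was 0.10 over all models but -0.06 on annotated models only.

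Markers of proliferating cells are given beside the Hist cluster genes, since these are known to be read in DNA synthesis. Of 25 markers, 18 had a read and they summed to 121 and 134 CPM. The Hist cluster genes summed to 399 and 341 CPM, but over 67 genes, so the sums do not compare the sets gene for gene. The highest were Rrm1 at 21.7 CPM, a subunit of ribonucleotide reductase, Mcm6 at 17.5, a subunit of the replicative helicase, and Pcna at 17.3, the sliding clamp of DNA polymerase. Mki67, Aurkb, Birc5, Bub1, Ccnb1, Cdc6 and Plk1, most of which act in mitosis, were at 0 in both libraries, and Top2a had 0 and 1 reads. Of 7 markers tested 0 were called and 0 had an unadjusted p below 0.05 in the exact binomial test, beside 30 and 796 of all 9334 genes. What part proliferating cells had in the Hist cluster reads was not tested.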

How the data were processed

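The authors deposited, for each library, whole-number counts of reads on every transcript model, GENCODE M21 models and those TALON added, on mm10, per the file headers and the deposited text. The counts were neither normalized nor pooled. Model lengths, exon numbers and coordinates were the authors' own, in bases per the file headers. For aligner, versions, priming and filters, nothing is given in the sources used here. Per the labels there was 1 group of 2 replicates, with 905154 and 745375 reads.

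Gene counts were sums over models, without spike-ins, and genes without a row counted as 0. From 10 reads upward, genes were put to an exact binomial test between the libraries, isoforms with Fisher's exact test where both libraries had 20 annotated reads and the leading model took under 95%, both with Benjamini-Hochberg adjustment over all features tested. Log2 ratios used 0.5 reads added. Tests were tried on simulated libraries. With 2 samples in 1 group edgeR's quasi-likelihood test could not be fitted. Alternatives used edgeR 4.0.16 (TMM, and its exact test with preset variation of 0.1 and 0.2), DESeq2 1.42.0 size factors, other minimums, annotated models only and sets of members. Software was Python 3.11.15, scipy 1.17.1, R 4.3.3 and BLAST 2.17.0 for near-identical copies. The leading transcript was the annotated coding transcript with the most reads, then the longest, and levels per 1000 bases of it were added after the data were seen.

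The members, gene lists and tests were chosen with earlier results of these data known. Members with at least 10 reads, the 3 next Hist cluster genes, replacement genes at 0 and the 3 highest genes of each pathway list and of the proliferation list were named by rule, and other list genes after their values were seen. Protein sequences were not used here.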

Additional observations from a re-analysis of the deposited data

How the results depend on the processing

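No paired analysis was possible because there was 1 group. Having 2 libraries and few reads per gene limits these results, and genes with under 10 reads were not tested. Over the alternatives 0 histone genes were called, with a lowest adjusted p of 0.401 (Hist1h2bc with DESeq2 size factors), and the log2 ratio changed sign in 4 of 125 values (H2afv and H2afy). TMM and DESeq2 factors shifted all log2 ratios by -0.04 and -0.08. On annotated models only, the summed histone level was 1295 CPM in place of 1091. The divisor there was the reads on such models, 652698 and 535492, in place of 859191 and 707758. Histone reads themselves fell from 997 and 723 to 892 and 655, so the higher CPM is not more histone reads. With that setting 15 genes in place of 30 were called. Without a fold minimum 107 genes were called, and edgeR's exact test called 12 and 4 at preset variation of 0.1 and 0.2. Requiring a change of 10 percentage points left 0 isoform calls in place of 1. The Hist cluster share of 33.9% was 27.4% without the 8 members that overlap another gene on the same strand. Of those 8 only Hist cluster genes had reads, mainly Hist2h2aa1 and Hist3h2a, so leaving them out could only lower the share. The share was 55.0% per 1000 bases and 32.5% on models with the stop codon, both chosen after seeing the data. The single-exon share of replacement reads was 17.6% without genomic models, in place of 20.3%. Median ends past the stop codon were 561 bases (Hist cluster) and 605 (replacement) with each model counted once, in place of 880 and 1272. In each library alone the level was 1022 and 1160 CPM, the share 33.3% and 34.4%, the single-exon shares 78.4% to 80.1% and 18.7% to 22.0%, and the ends 880 bases for Hist cluster genes and 1198 to 1345 for replacement genes. Beyond these changes of divisor and of the members or models counted, the cause of these shifts was not tested.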
